A study of Mus musculus with 6 samples.

Results

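Proenkephalin and the genes that process or pack secreted peptides were examined as a set of 9: Penk, Ptprn, Cpe, Pam, Furin, Pcsk5, Pcsk6, Pcsk7 and Scg5. Of these, 8 were listed among the 15063 genes of the expression tables, and all 8 had values high enough to be tested. The expression of Scg5, which encodes the chaperone 7B2 of the convertase PC2, was not analysed here. Penk was chosen by the size of its fall and Ptprn by the size of its rise in RPKM between the same 6 libraries, so their values are given as a description without a test. The remaining members were taken for their function, and only these were tested.

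The libraries came from mesenchymal stem cells (MSCs), the plastic-adherent stromal progenitors of bone marrow, of 3-week-old mice. RNA-seq was done on 3 libraries of WT cells and 3 of cells with a conditional knockout of Mapk7, called CKO, to ask how the kinase ERK5 acts on the choice between bone and fat. The Cre driver of the knockout and any alleles that the WT mice carry are not stated in the labels. All libraries were from passage 5 except WT library 2, from passage 7, and WT libraries 1 and 2 carry the same animal label. Whether the other libraries came from separate cultures is not stated, so p-values measure only the spread between these libraries. Values are in RPKM, read counts scaled to gene length and to the library's total reads, and each library held 17351907 to 20689481 counted reads. Mapk7 itself lay between 6.76 and 9.07 RPKM in WT and between 3.84 and 5.59 RPKM in CKO, without overlap (limma adjusted p = 0.505). Which part of the gene is deleted is not stated, so the level over the whole gene is a limited check of the labels.

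Enkephalins are short opioid peptides that are cut out of the larger precursor proenkephalin. The precursor enters the secretory pathway, where proprotein convertases cut behind pairs of basic residues, carboxypeptidase E trims the basic residues left at the new ends, and peptidylglycine alpha-amidating monooxygenase (PAM) amidates peptides that end in glycine. Enkephalins themselves are not amidated. In neuroendocrine cells these steps take place in dense core vesicles, whose membrane carries the protein IA-2, the product of Ptprn. Furin, PC5, PACE4 and PC7, the products of Furin, Pcsk5, Pcsk6 and Pcsk7, also act outside neurons, where they activate growth factor precursors and metalloproteases. Penk transcripts are known from bone and other mesenchymal tissues as well as from brain and adrenal medulla.

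The cultures were stromal with some macrophage RNA. The 12 stromal markers were all expressed and summed to 9533 to 14797 RPKM in WT against 5835 to 10753 in CKO. The 21 listed macrophage markers summed to 879 to 2482 RPKM in WT against 462 to 3762 in CKO, with no gene of the list passing the test. WT library 2 stood apart from the rest in its proliferation genes: the 18 cell cycle genes averaged 1.31 on the log2(RPKM + 1) scale there and 3.69 to 4.86 in the other 5 libraries. Since these are bulk cultures, fewer cells of a type and less RNA per cell cannot be told apart.

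Penk, the enkephalin precursor gene, varied more between libraries than any other member. It was at 73.1, 6551 and 1669 RPKM in WT libraries 1 to 3 and at 10.9, 2.3 and 1.13 RPKM in CKO libraries 1 to 3. The lowest WT value was 6.68 times the highest CKO value, so the groups did not overlap, and the highest library of all was the passage 7 one. In that library Penk ranked 3rd of 15063 genes and took 1.04% of all counted reads (215915 reads), while in CKO library 3 it ranked 10930th with 32 reads.

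The means were 2764 ± 3375 RPKM in WT and 4.79 ± 5.36 RPKM in CKO (SD, n = 3 each), with SDs as large as the means. On the log2(RPKM + 1) scale the difference of CKO minus WT was −7.73, the lowest of the 11085 genes tested, which is what Penk was picked for. Without WT library 2 it was −6.33, and without WT library 1 it was −9.56. The 2 WT libraries with the same animal label differed 89.6-fold in Penk, between passage 5 and passage 7, with 1 library each and no replicate check. Within WT the log2 range of Penk was 6.47, and 3 of 11085 genes had a larger one. The median range of all genes was 0.56. The cell cycle genes averaged 4.85, 1.31 and 4.08 on the log2(RPKM + 1) scale in WT libraries 1 to 3. In CKO libraries 1 to 3 they averaged 4.86, 4.54 and 3.69. Their order over the libraries was the reverse of that of Penk in WT and the same as that of Penk in CKO. The Schwann cell and glial list, all 10 listed, summed to 99.9, 194 and 167 RPKM in WT. In CKO it summed to 42.8, 25.9 and 64.4 RPKM, and most of each sum came from Pmp22. The mean log2(RPKM + 1) of the list overlapped between groups, at 1.24, 1.31 and 1.49 in WT against 1.41, 0.71 and 1.70 in CKO. S100b was lower in every CKO library and Mbp, at most 1.3 RPKM, was higher, both named after their values were seen. Sox10, a defining transcription factor gene of these cells, was at most 2.91 RPKM. The part of passage, proliferation or these markers in the level of Penk was not tested.

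**Figure D1:**
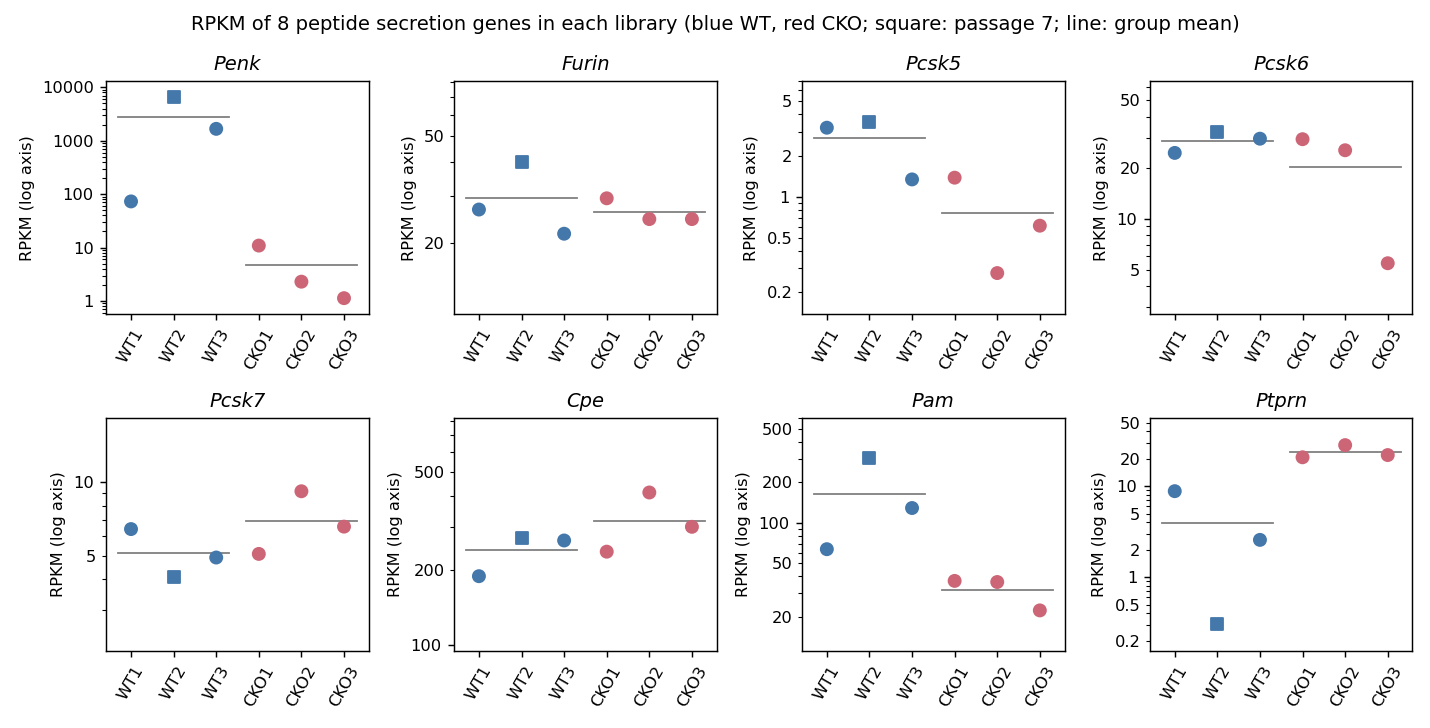
RPKM of the 8 members on log axes in each of the 6 libraries, with WT in blue, CKO in red, the passage 7 library as a square and the group mean as a line. Penk and Pam lie lower in every CKO library than in any WT library, Ptprn lies higher, and the other 5 genes overlap.

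Of the convertase genes, Furin and Pcsk6 were the main transcripts and Pcsk5 the scarcest, and none differed between genotypes by the test. Furin, the ubiquitous convertase of the trans-Golgi network, was at 26.6, 40.2 and 21.6 RPKM in WT against 29.3, 24.5 and 24.5 in CKO. These values overlapped, with the highest and the lowest both in WT. The log2 difference was −0.13 (SE 0.27), with a limma adjusted p of 0.883 over all genes.

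Pcsk6, the gene of PACE4, a convertase that binds heparan sulphate at the cell surface, was at 24.4, 32.4 and 29.6 RPKM in WT. In CKO it was at 29.4, 25.3 and 5.45 RPKM, so CKO library 3 alone lay below the WT range. The log2 difference was −0.78 (SE 0.57, limma adjusted p = 0.671), and it was −0.07 without CKO library 3. That library also held the highest summed level of macrophage markers, 3762 RPKM, of which Lyz2 gave 2948, and the lowest of stromal markers, 5835 RPKM. By the mean of log2(RPKM + 1) other libraries held these places. Macrophage markers were then highest in WT library 3 (5.09, against 4.93 in CKO library 3). Stromal markers were lowest in CKO library 2 (6.52, against 7.01 in CKO library 3). The part of these cells in the Pcsk6 level was not tested.

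Pcsk7, which encodes the most distantly related member of the family, was at 6.42, 4.07 and 4.91 RPKM in WT against 5.08, 9.17 and 6.57 in CKO. The groups overlapped, with the highest value in CKO library 2 and the lowest in the passage 7 WT library. The log2 difference was 0.36 (SE 0.27, limma adjusted p = 0.681).

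Pcsk5, the gene of PC5, which cleaves several TGF-beta family precursors, was at 3.20, 3.51 and 1.34 RPKM in WT against 1.38, 0.277 and 0.615 in CKO. The groups met at WT library 3 and CKO library 1, whose values differed by little. Between 54 and 732 reads stood behind these values. The log2 difference was −1.06 (SE 0.35), with a limma unadjusted p of 0.0185 and an adjusted p of 0.385. Pcsk5 is low enough for the pseudocount to matter: with 0.1 in place of 1 the difference was −1.81, and with voom on recovered reads −2.01.

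Added together, the 4 convertases reached 60.6, 80.2 and 57.5 RPKM in WT against 65.1, 59.3 and 37.1 in CKO. Furin made up 37.7 to 50.1% of the sum in WT and 41.3 to 66.0% in CKO. Pcsk6 made up 40.3 to 51.5% in WT, 45.1% and 42.7% in CKO libraries 1 and 2 and 14.7% in CKO library 3. The share of Pcsk5 was 2.33 to 5.27% in WT and 0.467 to 2.12% in CKO, so this share did not overlap. No test was run on these shares. Set against Furin, Penk stood at 2.75, 163 and 77.1 times the Furin level in WT and at 0.374, 0.0941 and 0.0462 times in CKO, per length.

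**Figure D2:**
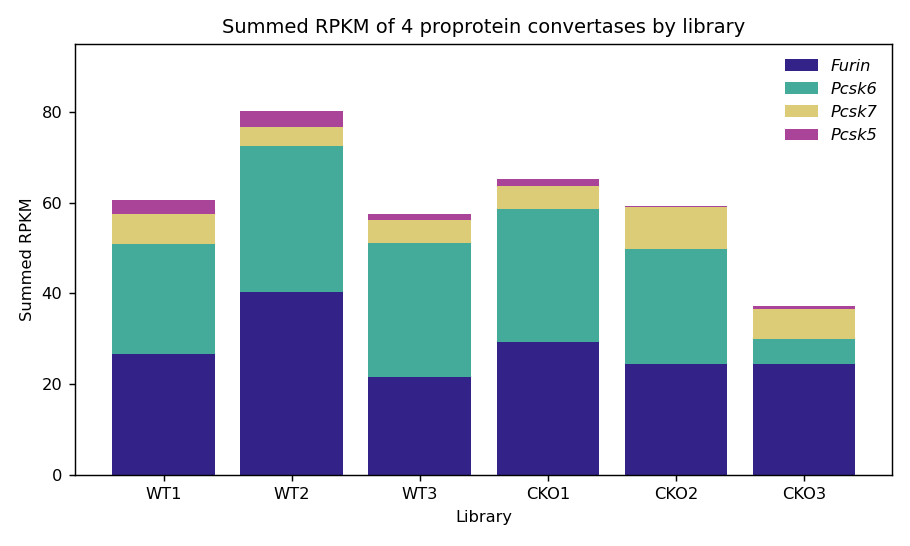
Stacked bars of the RPKM of Furin, Pcsk6, Pcsk7 and Pcsk5 in each library, starting at 0. The sum is highest in WT library 2 (80.2 RPKM) and lowest in CKO library 3 (37.1 RPKM), where Pcsk6 is reduced to 5.45 RPKM.

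The trimming enzyme gene Cpe was high in every library, and the amidating enzyme gene Pam had lower values in every CKO library without passing the test. Cpe was at 189.6, 270.3 and 264 RPKM in WT against 238, 412 and 299.7 in CKO. It ranked between 178th and 274th of 15063 genes, which made it the most abundant member in all CKO libraries and in WT library 1. The groups overlapped, and the log2 difference was 0.37 (SE 0.32, limma adjusted p = 0.716).

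Pam was at 63.8, 302 and 129 RPKM in WT against 37.1, 36.4 and 22.4 in CKO. Every CKO library was below every WT library, by 1.72 times at the nearest values, and the passage 7 library was again the highest. The means were 165 ± 123 RPKM in WT and 32.0 ± 8.32 RPKM in CKO (SD, n = 3 each). The log2 difference was −2.09 (SE 0.55), lower in 3 of 3 CKO libraries, with a limma unadjusted p of 0.0062 and an adjusted p of 0.303, so it did not pass. It was −1.51 without WT library 2 and −2.63 without WT library 1. Relative to Cpe, Pam was at 33.7, 112 and 49.0% in WT and 15.6, 8.83 and 7.46% in CKO.

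Among the 6 tested members taken for their function, none passed over all genes in limma, where 0.00902% of the 11085 genes did. At an unadjusted p under 0.05 there were 2, Pam and Pcsk5, both lower, against 9.74% of all genes. With voom on recovered reads, none passed after adjustment and the same count of 2 had an unadjusted p under 0.05. Groups that did not overlap with CKO lower were found for 1 of the 6, Pam, against 9.18% of all genes, and with CKO higher for none, against 7.51%. The median log2 difference of the 6 was −0.45, beside 0.03 over all genes tested. An exact permutation test of 1 gene between groups of 3 cannot go below p = 0.1, so none was used.

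Ptprn, the vesicle membrane gene, was higher in every CKO library, which is what it was picked for. Its order over the libraries was the reverse of that of Penk, except that both fell from CKO library 2 to CKO library 3. IA-2 is a catalytically inactive receptor-type phosphatase and a known autoantigen of type 1 diabetes. Ptprn was at 8.82, 0.309 and 2.57 RPKM in WT against 20.8, 28.3 and 22 in CKO. The lowest CKO value was 2.36 times the highest WT value, so the groups did not overlap, and the CKO libraries lay close together. The lowest value, 27 reads, was in WT library 2, where Penk and Pam were highest. The means were 3.90 ± 4.41 RPKM in WT and 23.7 ± 4.03 RPKM in CKO (SD, n = 3 each). The log2 difference was 2.77, with 11 of 11085 genes higher, and it was 2.05 without WT library 2, 3.5 without WT library 1 and 3.73 with voom on recovered reads.

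Ptprn is best known from neuroendocrine cells, so markers of such cells were read beside it. Of the 20 neuronal and neuroendocrine markers, 11 were listed, and 5 of these were under 1 RPKM in all libraries. Their summed level was 6.58 to 23.5 RPKM in WT against 28.0 to 45.5 in CKO, so it moved with Ptprn. Most of the sum came from Tubb3 and Uchl1, whose groups overlapped. Gap43, a growth cone gene, was higher in every CKO library, at 1.41, 0.148 and 1.67 RPKM in WT against 4.03, 5.68 and 2.92 in CKO. Nefm, a neurofilament gene, was also higher in every CKO library, at 0.0535, 0 and 0 RPKM in WT against 1.93, 1.02 and 0.576 in CKO. Both thus moved with Ptprn, while other genes of the list did not. Syt1 was near the floor, at 0.0427, 0.134 and 0.107 RPKM in WT against 0.00978, 0.00957 and 0.0417 in CKO. Its nearest WT and CKO values, 0.0427 and 0.0417 RPKM, differed too little to separate the groups. Map2 was at 0.625, 1.23 and 0.899 RPKM in WT against 0.634, 0.221 and 0.105 in CKO, with overlapping groups. Gap43, Nefm, Syt1 and Map2 were named after their values were seen. Syp, the synaptic vesicle marker synaptophysin, was at most 0.186 RPKM and Chgb, a granin, at most 0.200 RPKM. The part of these markers in the Ptprn level was not tested. Ptprn2, its close relative in vesicle membranes, had 0 to 6 reads per library.

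The promoters of Ptprn and Pam are shown because these were the members with a sequence at hand whose groups did not overlap, in opposite directions. Of the 9 genes, 7 had an entry in the RefSeq promoter table (build GRCm38.p6), and Penk and Cpe had none. The 250 bases before the first listed start are given 5′ to 3′ on the gene's strand. For Ptprn this is chr1:75264209-75264458 and for Pam chr1:98095647-98095896, both on the minus strand. Capitals mark the half-site of the cyclic AMP response element (CRE), TGACG on either strand, the kind of element through which CREB family factors bind many neuropeptide genes.
Ptprn: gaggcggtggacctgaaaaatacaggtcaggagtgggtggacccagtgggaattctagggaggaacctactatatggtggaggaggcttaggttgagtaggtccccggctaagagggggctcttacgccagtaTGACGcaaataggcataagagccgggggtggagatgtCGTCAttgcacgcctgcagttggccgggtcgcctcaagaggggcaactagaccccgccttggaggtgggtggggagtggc
Pam: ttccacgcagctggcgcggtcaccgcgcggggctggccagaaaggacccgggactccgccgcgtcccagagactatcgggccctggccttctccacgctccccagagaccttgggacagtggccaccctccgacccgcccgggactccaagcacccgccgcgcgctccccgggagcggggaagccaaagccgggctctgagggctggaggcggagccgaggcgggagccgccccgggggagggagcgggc

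The Ptprn window held 2 CRE half-sites, 117 and 80 bases before the start by their first printed base, and the Pam window held none. Of 32841 windows of this length, taken over all listed starts of all genes, 17.8% held at least 1 half-site and 3.90% at least 2. The first windows of Furin and Scg5 held 1 each, and those of Pcsk5, Pcsk6 and Pcsk7 held none. Ptprn, Pam and Furin each had a second listed start, and the windows before these starts held no half-site. None of the 7 genes' windows held the full CRE TGACGTCA (1.55% of all windows), the AP-1 motif TGANTCA (6.75%) or the MEF2 motif (2.92%), all searched on both strands. The full CRE contains the half-site. The KLF-type box CACCC was found in the first window of each of these 7 genes and in 52.0% of all windows. These matches describe letters in a window and are not binding sites.

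Genes most like Penk and Ptprn were sought by Pearson correlation of log2(RPKM + 1) over the 6 libraries, among genes with a mean of at least 5 RPKM. Closest to Penk were Ankrd46 (r = 0.997), Cnmd (0.996) and Osgin2 (0.996). Cnmd, the chondromodulin gene of avascular cartilage, had the largest change of the 3 and was at 13.1, 1895 and 482 RPKM in WT against 1.91, 0.176 and 0 in CKO. Pam stood 24th of 7645 genes at r = 0.978, and Ptprn was near the other end at −0.979. A negative value for Penk and Ptprn follows from picking the former for its fall and the latter for its rise. Closest to Ptprn were Ruvbl2 (0.997), Csnk1d (0.994) and Ahcy (0.994). With 6 points that include both genotypes, and with 1 library far from the rest, such values describe an order of libraries and no more.

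The wider pathway was read through 8 lists with 158 distinct genes, of which 134 were listed and 84 tested besides Penk and Ptprn, the 6 other members among them. In limma 0 of the 84 passed the adjusted threshold. At an unadjusted p under 0.05 there were 16 (19.0%), 4 higher and 12 lower, beside 9.74% of all genes. Every CKO library was above every WT library for 10 (11.9%), beside 7.51% of all genes, and below for 11 (13.1%), beside 9.18% of all genes. The median log2 difference was −0.11. With voom on recovered reads, 14 had an unadjusted p under 0.05 and none passed.

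**Figure D3:**
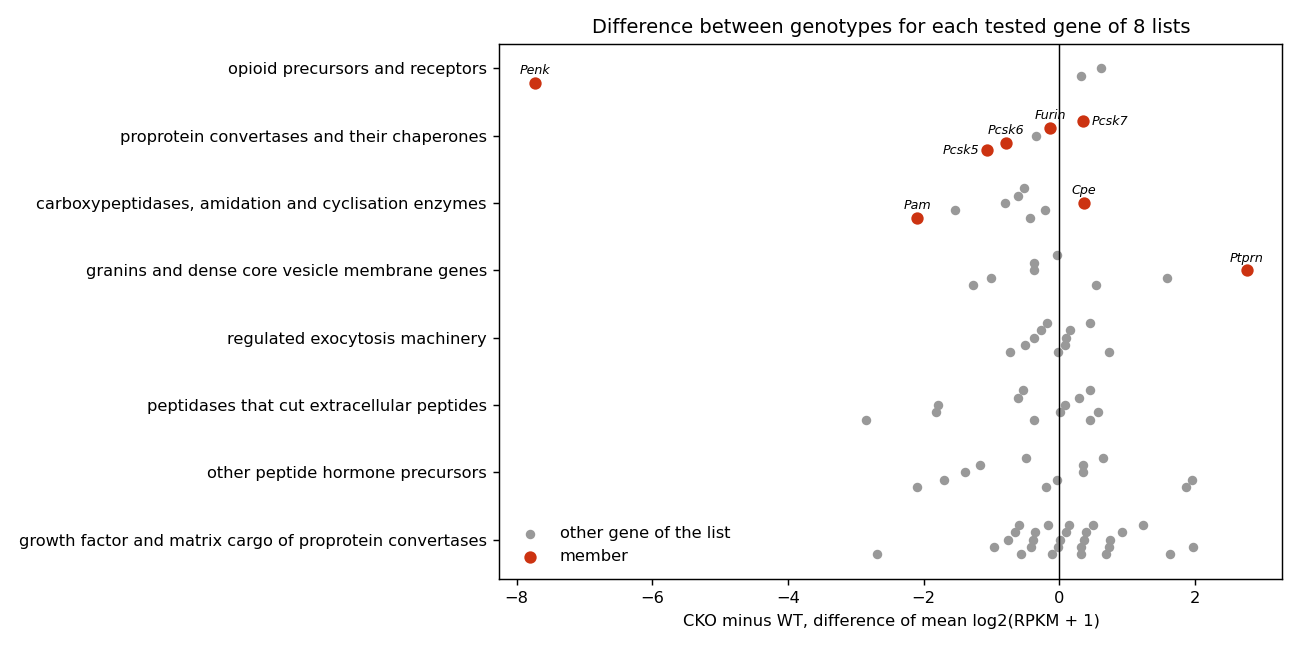
Difference of mean log2(RPKM + 1), CKO minus WT, for each tested gene of the 8 lists, with the members in red and the other genes in grey. Penk (−7.73) and Ptprn (2.77) lie outside the range of the other genes of their lists, while most genes lie close to 0.

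Of the opioid genes other than Penk, the precursors were scarce and the 2 tested genes did not pass. Pomc, the precursor of ACTH and beta-endorphin, was at 0.170 to 0.565 RPKM in all libraries. Pnoc, the nociceptin precursor gene, had 0 reads in the WT libraries and 37, 2 and 1 reads in CKO. Pdyn and the receptor genes Oprd1, Oprm1 and Oprk1 were not analysed here. Ogfr, which encodes a nuclear envelope receptor for Met-enkephalin, was at 15.2 to 32.3 RPKM in WT against 31.8 to 42.8 in CKO (log2 difference 0.62, limma adjusted p = 0.583).

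The convertases of neuroendocrine vesicles were scarce. Pcsk1 had 0 to 4 reads per library and its inhibitor gene Pcsk1n 0 to 7. Pcsk2, the gene of PC2, was at 5.78 RPKM (567 reads) in WT library 2 and at 0 to 0.534 RPKM elsewhere, so it was seen above 1 RPKM in the same library in which Penk peaked. Mbtps1, the site-1 protease gene, was at 48.6 to 63.1 RPKM in WT against 35.9 to 50.3 in CKO (log2 difference −0.34, limma adjusted p = 0.657).

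Of the 8 tested carboxypeptidase, amidation and cyclisation genes, 7 lay below 0 and none passed. Aebp1, which encodes a secreted collagen-binding protein of the carboxypeptidase family, was at 357, 357 and 374 RPKM in WT against 307, 183 and 159 in CKO (log2 difference −0.80, limma adjusted p = 0.496). Cpxm2 was at 45.2 to 63.1 RPKM in WT against 60, 8.55 and 11.8 in CKO. Cpd, a second trimming enzyme gene, was at 18.4 to 23.9 RPKM in WT against 7.45 to 18.5 in CKO (log2 difference −0.60, adjusted p = 0.594).

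The granins, which condense peptides in dense core vesicles, were low. Scg2 was at 0.825, 2.25 and 8.91 RPKM in WT against 2.44, 0.114 and 0.0827 in CKO. Vgf, a growth factor-inducible granin gene, was at 1.46, 0 and 0.861 RPKM in WT against 8.76, 5.03 and 1.13 in CKO, with its highest values in CKO and overlapping groups (log2 difference 1.59, limma adjusted p = 0.452). Chga and Scg3 were not analysed here. Of 11 tested exocytosis genes, 5 lay above and 6 below 0 with a median of −0.01. Vamp8, a vesicle fusion gene, was the most abundant, at 65.3 to 86.3 RPKM in WT against 47.2 to 105 in CKO.

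Of the genes of peptidases that cut extracellular peptides, Mme, Anpep and Enpep had lower values in every CKO library, and none passed the test. Ece1, Lnpep and Fap of the same list overlapped between the groups. Ece1 was at 19.4 to 35.6 RPKM in WT against 15.7 to 24.1 in CKO (log2 difference −0.37, limma adjusted p = 0.687). Mme encodes neprilysin, long known as enkephalinase, and was at 12.6, 33.9 and 28.8 RPKM in WT against 8.33, 0.901 and 1.12 in CKO. Every CKO library was below every WT library (log2 difference −2.85, SE 0.67, limma adjusted p = 0.278). Anpep, the gene of aminopeptidase N, which removes the first tyrosine of enkephalins, was at 9.07 to 27.9 RPKM in WT against 1.73 to 7.48 in CKO. Anpep (adjusted p = 0.334) and Enpep (adjusted p = 0.303) were also without overlap, and were named after their values were seen. The cytosolic peptidase genes Prep and Dpp3 overlapped between groups, at 15.9 to 40.5 and 24.6 to 30.3 RPKM in WT and 34.3 to 41.5 and 26.0 to 35.5 RPKM in CKO. Thop1 and Nln, genes of metallopeptidases that cut short peptides, had higher values in every CKO library and were named after their values were seen. Thop1 was at 13.1 to 19 RPKM in WT against 20.1 to 24.9 in CKO (log2 difference 0.57, limma adjusted p = 0.47), and Nln at 3.99 to 7.85 RPKM in WT against 8.47 to 9.16 in CKO (log2 difference 0.45, adjusted p = 0.607). Over the 12 tested peptidases, 6 lay above and 6 below 0. Every CKO library was below every WT library for 3 (25%), beside 9.18% of all genes. Every CKO library was above every WT library for 2 (16.7%), beside 7.51% of all genes.

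Other peptide precursor genes went both ways. Nucb2, the nesfatin precursor gene, was at 36.4 to 48.2 RPKM in WT against 32.7, 60.3 and 138 in CKO, and Adm, the adrenomedullin gene, at 57.5 to 76.6 RPKM in WT against 59.6, 59.1 and 154 in CKO. Igf1 was at 13.1, 32.1 and 36.9 RPKM in WT against 11.5, 5.23 and 1.94 in CKO (log2 difference −2.09, limma adjusted p = 0.329). Edn1, the endothelin 1 precursor gene, whose product is first cut by furin-type enzymes, was at 2.10, 0.316 and 0.539 RPKM in WT against 3.70, 7.15 and 7.03 in CKO. Its groups did not overlap (log2 difference 1.87, SE 0.39, limma adjusted p = 0.258), and it was named after its values were seen.

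Of the 27 tested growth factor, receptor and protease genes whose products the convertases activate, 15 lay above and 12 below 0 and none passed. Mmp14, the membrane-type metalloprotease gene activated by furin, was at 204, 76.3 and 163 RPKM in WT against 220, 250 and 223 in CKO, with every CKO value above the WT values (log2 difference 0.75, limma adjusted p = 0.586). Mmp2, Tgfb3 and Lrp1 overlapped between the groups. Tgfb1 and Bmp4, named after their values were seen, had every CKO library below every WT library. Bmp4 was at 47.2, 47.3 and 42.3 RPKM in WT against 17.5, 8.01 and 1.31 RPKM in CKO (log2 difference −2.68, limma adjusted p = 0.303). Tgfb1 was at 19.8 to 32.9 RPKM in WT against 15.5 to 16.8 in CKO (log2 difference −0.65, adjusted p = 0.424).

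**Figure D4:**
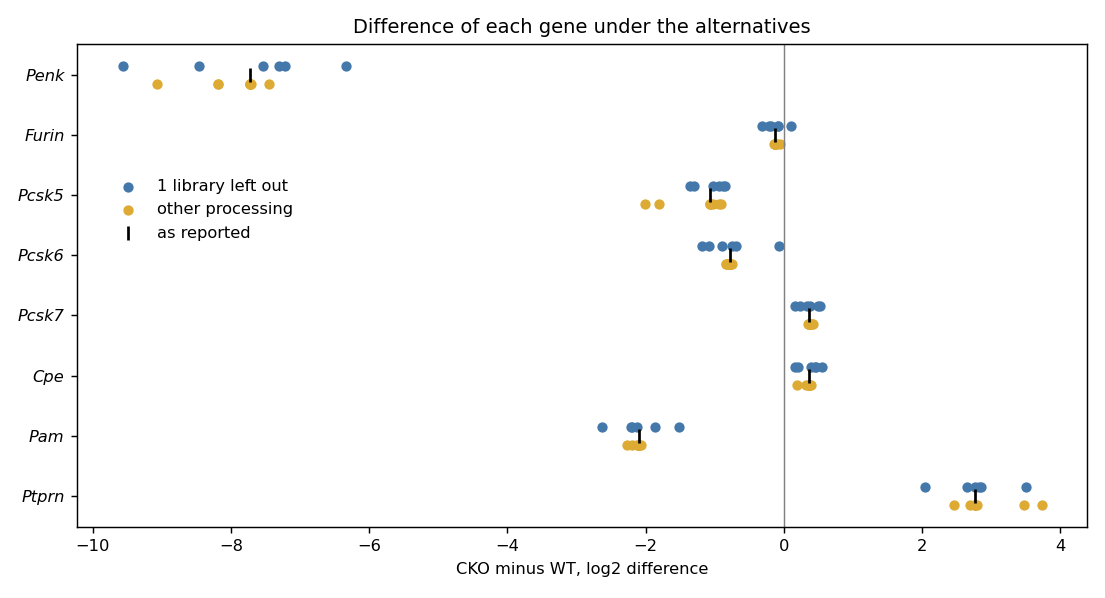
CKO minus WT log2 difference of each member as reported (black tick), with 1 library left out (blue) and under other processing (yellow). Penk, Pam, Pcsk5 and Pcsk6 stay below 0 and Ptprn, Pcsk7 and Cpe above 0, while Furin crosses 0 without WT library 2 (0.11).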

How the data were processed

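The authors deposited 1 value per gene and library in RPKM, with the unit inferred from the values, since the file headers say only expression. Per the submitters' processing notes the build was mm9. The aligner, counter, strand use and filters are not named in the labels or file headers, so overlapping or antisense genes may share reads. Whole reads were recovered from the RPKM steps for 14993 of 15063 genes (99.5%, within 0.01 read or a relative 1e-07). Library totals were 17351907 to 20689481 reads, and 3 reads in a 1 kb gene correspond to 0.145 to 0.173 RPKM (counting error only).

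The 11085 genes with at least 1 RPKM in at least 3 libraries were fitted with limma 3.58.1 (R 4.3.3) on log2(RPKM + 1), genotype as the only term, intensity trend and robust moderation. P-values are two-sided and Benjamini-Hochberg adjusted over all genes, with a threshold of 0.05. Fold changes of low genes are understated on this scale. Voom on the recovered reads served as an alternative. The fit was also run on simulated reads. Their spread was set in advance and not taken from these libraries, so that run cannot tell how the fit performs here. The text names the members, Mapk7, up to 4 genes of highest mean RPKM per pathway list, a set of opioid and neuroendocrine genes, and the 3 genes whose pattern over the libraries is most like that of Penk and of Ptprn. Exceptions are stated. Members and lists were chosen with earlier results of these data known. WT library 3 is numbered differently in its description and its file header.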

Additional observations from a re-analysis of the deposited data

How the results depend on the processing

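None of the 84 tested pathway genes, which include the 6 tested members, passed under these alternatives: median centring, quantile normalization, no filter, a filter at 5 RPKM, a pseudocount of 0.1, plain limma moderation, each library left out, WT libraries 1 and 2 averaged, the replicate block, voom on recovered reads, or an adjusted p of 0.1. Over all genes, 1 passed. That count was 2 with median centring, 2 with quantile normalization, 4 with the filter at 5 RPKM, 20 with WT libraries 1 and 2 averaged and 5 at an adjusted p of 0.1. It was 0 without a filter, with the pseudocount of 0.1 and with voom on recovered reads, with unadjusted p under 0.05 for 1399, 1059 and 995 genes in limma. With 1 library left out it ranged from 0 to 24 (24 when WT library 1 was dropped, 17 for CKO library 1, 1 for CKO library 2, and 0 for each of the others, where 642 to 800 genes had an unadjusted p under 0.05). The cause was not tested.

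With the replicate number as a block it was 0, with 1123 genes at an unadjusted p under 0.05. Same-numbered libraries deviated together in 1 of 3 pairs (r = 0.198, 0.0145 and −0.0192), so the numbers were not taken as pairs. Furin, at −0.13, reversed to 0.11 without WT library 2 and was otherwise between −0.32 and −0.05. Over the alternatives Penk ranged from −9.56 to −6.33, Ptprn from 2.05 to 3.73, Pam from −2.63 to −1.51 (adjusted p 0.0824 to 0.79), Pcsk5 from −2.01 to −0.85, Pcsk6 from −1.18 to −0.07, Pcsk7 from 0.16 to 0.53 and Cpe from 0.16 to 0.56. Pcsk5 could not be tested at the 5 RPKM filter. Depth limits Pcsk5 and the scarce convertase and granin genes, read from few counts.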
